A study of Mus musculus with 4 samples.

Results

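Taken by name from the 29924 gene names of the array were 10 genes known as feedback inhibitors of MAP kinase signalling: the dual-specificity phosphatases Dusp1, Dusp2, Dusp4, Dusp5, Dusp6 and Dusp10, the Sprouty genes Spry1 and Spry2, and the Sprouty-related genes Spred1 and Spred2. All probes that the scanner files assign to these names were kept, which gave 12 of the 39429 probes of the array, 3 of them for Spred1 and 1 for each other gene. Of these 12 probes, 10 (9 genes) exceeded background clearly on 2 or more arrays and entered the test. The Dusp5 probe and 1 Spred1 probe did not.

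The study compared spleen B cells of male mice lacking Ackr4 (Ackr4ko, 73 and 71 days old) with those of male C57BL/6 mice (WT, 77 and 74 days old). ACKR4 is an atypical receptor that removes the chemokines of lymphoid tissue. Cells of both genotypes were isolated magnetically. They were then kept for 3 days in medium containing 10 µg/mL anti-IgM to engage the B cell receptor, together with 10 µg/mL of the CD40 antibody clone FGK4.5 in place of T cell help. Donors differed between the 2 independent experiments, each of which gave 1 array per genotype. The labels used here do not describe how the Ackr4 allele was made. Experiments are numbered as the replicates are, so replicate 1 of each genotype comes from experiment 1.

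Directions carry a limit that touches every difference below. The authors' value table and the scanner files name the genotypes of each experiment the other way round. Over 16207 probes, each of the 4 table columns lay closest to the scanner array of the opposite genotype from its experiment. The SD of their log2 differences was 0.0203 to 0.120, while it was 0.45 to 0.554 between a column and the scanner array of the sample it names. Both Ackr4 probes stayed near background throughout (well above it on 0 arrays) and check no label. "Labelled Ackr4ko" and "labelled WT" therefore follow the scanner files, and all directions reverse should the value table be right. The B cell markers Cd79a, Cd79b, Ms4a1, Cd22, Pax5 and Blk were well above background on the 4 arrays. WT replicate 2 differed from the rest: 6.24% of its spots were marked as outliers, against 1.79% to 2.12% elsewhere, and it had the highest detection limit: the lowest probe well above background had a log2 signal of 5.84 there, 3.82 and 4.6 on the Ackr4ko-labelled arrays and 4.31 on WT replicate 1.

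Engagement of the B cell receptor or of CD40 sets off cascades that end in the MAP kinases ERK, JNK and p38, each switched on by phosphorylation. Dual-specificity phosphatases remove that phosphate again. DUSP5 and DUSP6 act mainly on ERK, in the nucleus and the cytoplasm, DUSP10 mainly on JNK and p38, and DUSP1, DUSP2 and DUSP4 are nuclear enzymes that can act on more than 1 of these kinases. Sprouty and Spred proteins act further up, where signals pass through Ras and Raf to ERK, and Spred proteins bring the Ras inhibitor neurofibromin to the membrane. Many of these genes are themselves induced by MAP kinase signalling, which closes a feedback loop.

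Sequences upstream of the gene start were read for motifs of transcription factors that respond to this signalling, and for the GC box, which is not counted among those. Of the 10 genes, 9 matched an entry of the RefSeq promoter sequences (build GRCm38.p6), and Dusp4 did not. In the 250 bases before the start, both strands were searched for the cAMP response element (TGACGTCA), the AP-1 site (TGANTCA), the ETS core (CCGGAA), the CArG box of serum response factor, and the GC box (GGGCGG). The 3 stretches below are shown because Dusp1 and Spry1 were the members that differed by at least 1.5-fold with 1 sign in both experiments, and because Dusp5 holds the other signal-responsive motif found. Capitals mark the cAMP response element in Dusp1, a pair of adjoining CArG boxes in Dusp5 and the GC box in Spry1. They lie at chr17:26508473-26508722 on the minus strand (Dusp1), chr19:53528895-53529144 on the plus strand (Dusp5) and chr3:37639697-37639946 on the plus strand (Spry1), and each is written 5′ to 3′ towards the gene.
Dusp1: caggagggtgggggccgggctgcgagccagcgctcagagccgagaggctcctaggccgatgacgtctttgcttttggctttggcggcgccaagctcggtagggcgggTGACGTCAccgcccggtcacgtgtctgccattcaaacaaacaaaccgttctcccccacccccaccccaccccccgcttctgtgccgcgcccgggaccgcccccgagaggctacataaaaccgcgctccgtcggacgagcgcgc
Dusp5: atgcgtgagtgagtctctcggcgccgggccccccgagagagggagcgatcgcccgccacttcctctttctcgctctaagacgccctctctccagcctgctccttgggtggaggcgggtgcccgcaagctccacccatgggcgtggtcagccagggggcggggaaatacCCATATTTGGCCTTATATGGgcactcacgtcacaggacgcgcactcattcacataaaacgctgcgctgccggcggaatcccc
Spry1: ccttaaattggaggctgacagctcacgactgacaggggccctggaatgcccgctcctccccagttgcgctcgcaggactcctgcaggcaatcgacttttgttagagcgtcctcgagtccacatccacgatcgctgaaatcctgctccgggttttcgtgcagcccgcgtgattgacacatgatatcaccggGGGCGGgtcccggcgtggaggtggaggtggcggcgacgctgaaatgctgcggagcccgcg

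The cAMP response element of Dusp1 lies 143 to 136 bases before the start, between 2 GC boxes that it does not overlap, and a match was held by 1.55% of the 32851 promoters of the same length. The CArG boxes of Dusp5 lie 82 to 73 and 72 to 63 bases before the start, and 1.47% of promoters hold such a box. No other member had either motif. A GC box was found in 7 of the 9 members and in 32.7% of all promoters. The GC content of the 9 member sequences was 56% to 70.8%. The AP-1 site and the ETS core were in 0 of the 9 members, and in 6.75% and 12.0% of all promoters. These matches describe letters in this window and nothing about binding.

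**Figure D1:**
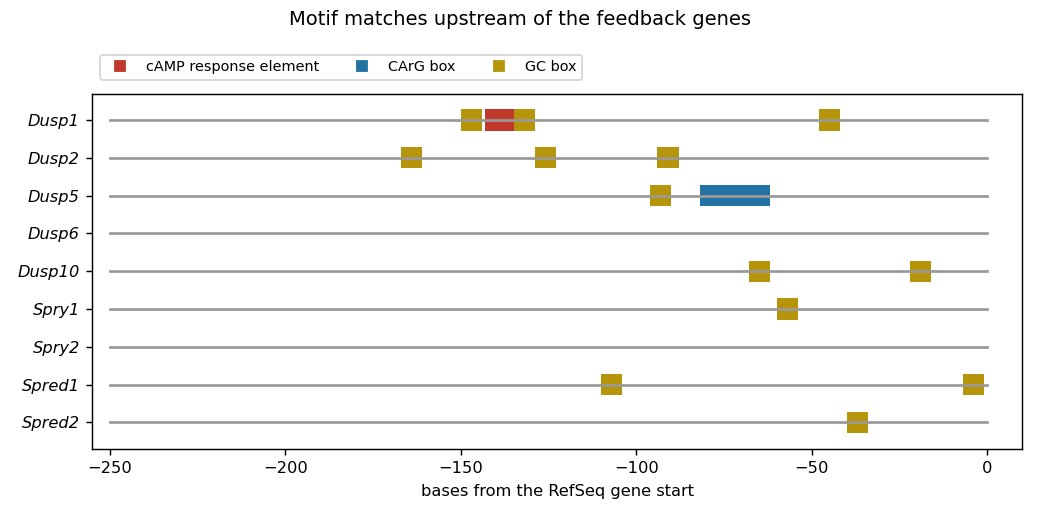
Matches to the searched motifs in the 250 bases before the RefSeq gene start of 9 feedback genes, with the distance from the start in bases on the horizontal axis and 1 row per gene. The cAMP response element appears in Dusp1 (143 to 136 bases before the start) and the CArG boxes in Dusp5, while GC boxes appear in 7 genes.

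Signal levels are given as log2 of Agilent's processed signal, scaled so that the 4 arrays share their 75th percentile. Each value is the mean over the 4 spots of the probe on that array, without spots that the scanner software marked as outliers. No probe's level was set against another probe's. A probe counts as well above background on an array where at least 50% of its spots carried that mark.

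Dusp1, Dusp2, Dusp4, Dusp6 and 2 of the 3 Spred1 probes were well above background on the 4 arrays. Dusp10, Spry2 and Spred2 were so on 3, each missing on WT replicate 2, the array with the highest detection limit. Spry1 was well above background on both arrays labelled Ackr4ko and on neither labelled WT. Dusp5 was so on 1 array, Ackr4ko replicate 1.

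**Figure D2:**
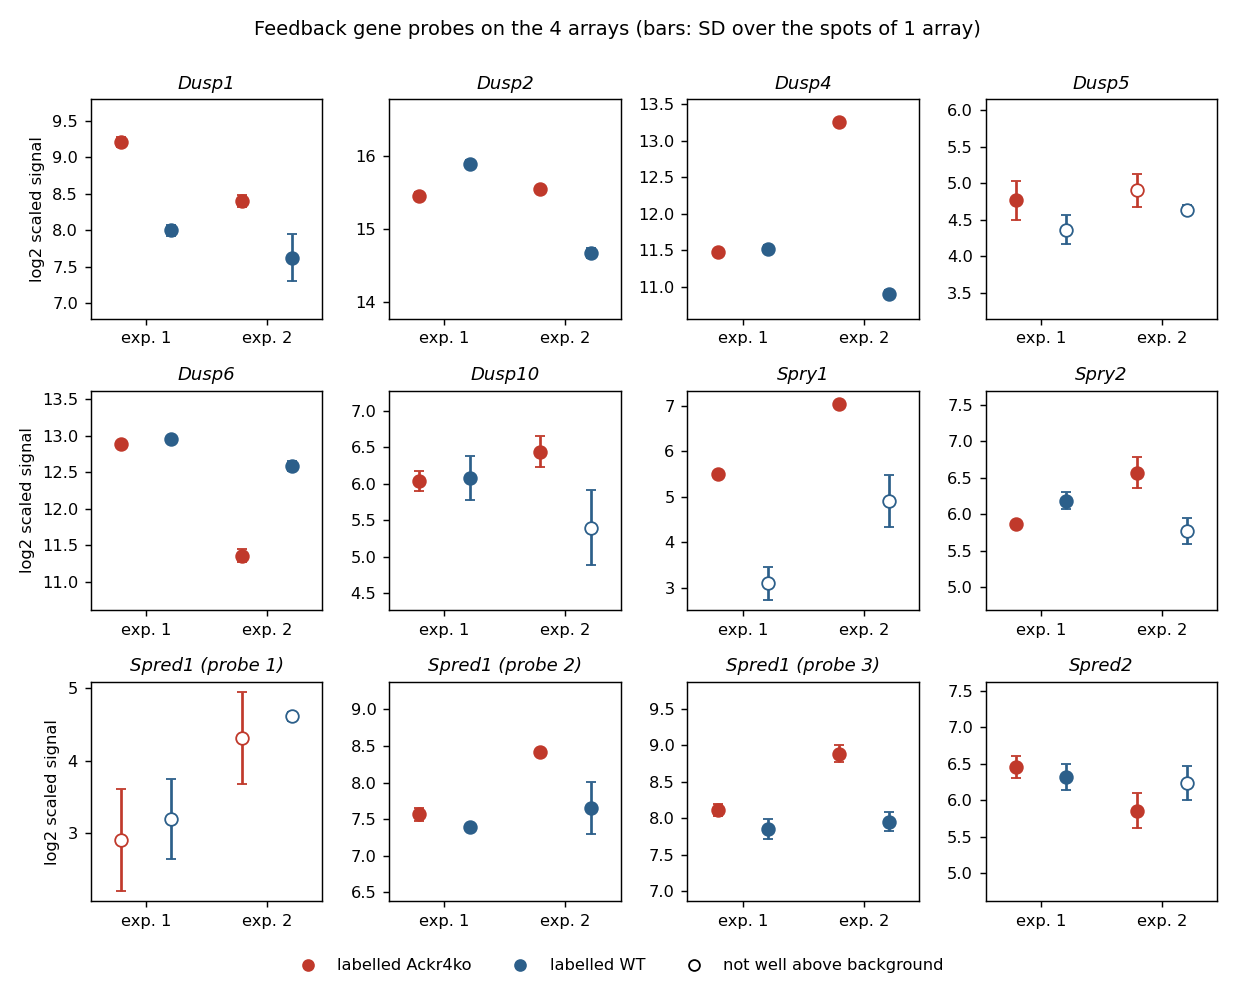
Log2 scaled signal (vertical axes, with a range of their own in each panel) of the 12 probes on the arrays labelled Ackr4ko (red) and WT (blue) in experiments 1 and 2. Points are means over the spots of 1 array, bars are the SD over those spots and open points were not well above background, as for Spry1 on both arrays labelled WT.

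Spry1 was brighter on the arrays labelled Ackr4ko and was not measured above background on those labelled WT, so the size of its difference is uncertain. Spry1 encodes a Sprouty protein that restrains Ras to ERK signalling. Its probe (A_55_P1952235, chromosome 3, 37543403 to 37543462, mm9) had a log2 signal of 5.49 and 7.04 in replicates 1 and 2 labelled Ackr4ko, against 3.1 and 4.91 in those labelled WT, where no array was well above background. The Ackr4ko-labelled array was the higher within each experiment. Ackr4ko replicate 1 lies under the detection limit of WT replicate 2 (5.84), so whether the genotypes overlap across the experiments cannot be told. With the arrays labelled WT set at their detection limit, Spry1 was 2.28-fold brighter on those labelled Ackr4ko, 2.26-fold in experiment 1 and 2.30-fold in experiment 2. This is no strict lower bound, since a probe can lie above that limit without being well above background, as Spred2 did on WT replicate 2 (6.24). The fitted log2 difference, which takes the dim WT values as they stand, was 2.27 ± 0.65 (SE, n = 2 per genotype, 95% interval 0.80 to 3.73). It was 1.19 with the WT values set at the limit. The fit gave a limma p of 0.00659 and an adjusted p of 0.642 over all 20862 tested probes. With the experiment as a block in the fit the limma adjusted p was 4.06e-08. The probe entered the test through the Ackr4ko-labelled arrays alone, so its difference is in part set by that filter, and neither p is support for its size. The spread between experiments within a genotype was large beside this, with an SD of 1.10 around a mean of 6.27 for labelled Ackr4ko and of 1.28 around 4.00 for labelled WT.

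The size of the Spry1 difference depended on how its dim values were read. It was 0.55 with normexp background correction, below Dusp4 and below the 0.73 of Dusp1 in that setting, and then less than 2-fold in at least 1 experiment. On WT replicate 2, 1 of its 4 spots was marked as an outlier and had a log2 signal of 9.63, while the kept spots lay between 4.55 and 5.56. With that spot kept, the difference was 1.68 and again not 2-fold in both experiments. It was 3.17 without WT replicate 2 (limma adjusted p = 0.00159), 3.04 with Ackr4ko replicate 1 left out, 1.49 with Ackr4ko replicate 2 left out and 1.36 with WT replicate 1 left out.

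Dusp1 was the other member with values higher by at least 1.5-fold in both experiments. It encodes an inducible nuclear phosphatase of p38, JNK and ERK and is a classic immediate early gene. Its probe (A_51_P430900, chromosome 17, 26642526 to 26642536 as the file gives it, mm9) had a log2 signal of 9.21 and 8.40 in the Ackr4ko-labelled arrays, against 8.0 and 7.63 in the WT-labelled arrays. Both Ackr4ko values lay above both WT values, and within each genotype the value was lower in experiment 2. The difference was 1.21 in experiment 1 and 0.77 in experiment 2, with a mean of 0.99 ± 0.39 (SE, 95% interval 0.11 to 1.87). The limma adjusted p was 0.989. Of all tested probes, 4.36% differed by at least as much in either direction, with 2.75% in experiment 1 and 19.0% in experiment 2. Its difference was 0.59 without Ackr4ko replicate 1.

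Dusp4 differed by more than 2-fold in experiment 2 and by less than 0.1 (log2) in experiment 1. DUSP4 is a nuclear phosphatase of ERK and, in some cells, JNK. The probe (A_51_P518051, chromosome 8, 35882045 to 35882104, mm9) had a log2 signal of 11.47 and 13.26 in the Ackr4ko-labelled arrays, against 11.52 and 10.90 in the WT-labelled arrays. Ackr4ko replicate 2 stood above the other 3 arrays, and the genotypes overlapped. The difference was -0.05 in experiment 1 and 2.36 in experiment 2, a size reached or passed there by 0.767% of tested probes. The mean difference was 1.16 ± 0.55 (SE), with a limma adjusted p of 1.00. With the experiment as a block the limma adjusted p was 0.0371, but that fit gave all probes the same variance. This p therefore does not reflect the spread of Dusp4 between the experiments. The difference was 2.05 when Ackr4ko replicate 1 was left out and 0.26 when Ackr4ko replicate 2 was.

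Dusp6 had its lowest value on the same array on which Dusp4 had its highest. DUSP6 is the cytoplasmic phosphatase specific for ERK. Its probe (A_51_P502614, chromosome 10, 98729985 to 98730044, mm9) had a log2 signal of 12.89 and 11.36 in the Ackr4ko-labelled arrays, against 12.95 and 12.58 in the WT-labelled arrays. The experiment 1 arrays lay close together, and Ackr4ko replicate 2 lay below the other 3 arrays. The difference was -0.06 in experiment 1 and -1.22 in experiment 2, with a mean of -0.64 ± 0.50 (SE, limma adjusted p = 1.00). Without Ackr4ko replicate 2 it was 0.13, and without Ackr4ko replicate 1 it was -1.41.

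Dusp2 gave opposite signs in the experiments. DUSP2 is a nuclear phosphatase found mainly in activated blood cells. Its probe (A_52_P399934, chromosome 2, 127163930 to 127163989, mm9) had a log2 signal of 15.46 and 15.55 in the Ackr4ko-labelled arrays, against 15.89 and 14.68 in the WT-labelled arrays. The arrays labelled Ackr4ko lay together between the values of those labelled WT. The difference was -0.43 in experiment 1 and 0.87 in experiment 2, with a mean of 0.22 ± 0.44 (SE, 95% interval -0.76 to 1.20, limma adjusted p = 1.00), and it was -0.39 with WT replicate 2 left out and 0.83 with WT replicate 1 left out.

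The dim Dusp genes carried little information. Dusp10 (A_51_P104418, chromosome 1, 185898608 to 185898667, mm9) had a log2 signal of 6.04 and 6.44 in the Ackr4ko-labelled arrays, against 6.08 and 5.40 in the WT-labelled arrays, the last not well above background. The genotypes overlapped, and the mean difference was 0.50 ± 0.38 (SE, limma adjusted p = 1.00), but 0.08 with normexp. Dusp5 (A_55_P2063237, chromosome 19, 53615682 to 53615741, mm9) had a log2 signal of 4.77 and 4.91 in the Ackr4ko-labelled arrays, against 4.37 and 4.64 in the WT-labelled arrays, and was not tested.

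Spred1 was the clearest measured of the Spred genes, since a pair of its probes lay well above background on the 4 arrays. They read the same transcript (A_55_P2079425 at chromosome 2, 117004952 to 117005011, and A_55_P2079430 at 117005906 to 117005965, mm9). Probe A_55_P2079430 had a log2 signal of 8.11 and 8.89 in the Ackr4ko-labelled arrays, against 7.85 and 7.95 in the WT-labelled arrays. Probe A_55_P2079425 had 7.56 and 8.42 in the Ackr4ko-labelled arrays, against 7.39 and 7.65 in the WT-labelled arrays. Ackr4ko replicate 2 was the highest array for both probes. The difference was 0.26 in experiment 1 and 0.93 in experiment 2 for A_55_P2079430 and 0.17 and 0.77 for A_55_P2079425, so the probes differed by less than 0.2 in each experiment. The means of 0.60 ± 0.38 and 0.47 ± 0.39 (SE) had a limma adjusted p of 1.00 each. The third probe (A_55_P2090045, chromosome 2, 116998491 to 116998550, mm9) belongs to another transcript of the gene and was not well above background on any array, with log2 signals of 2.9 and 4.31 in the Ackr4ko-labelled arrays, against 3.20 and 4.61 in the WT-labelled arrays.

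Spry2 and Spred2 were dim and overlapped between the genotypes. Spry2 (A_55_P1952251, chromosome 14, 106291845 to 106291904, mm9) had a log2 signal of 5.87 and 6.57 in the Ackr4ko-labelled arrays, against 6.18 and 5.77 in the WT-labelled arrays, with a mean difference of 0.24 ± 0.38 (SE). Spred2 (A_55_P2025840, chromosome 11, 19922416 to 19922475, mm9) had 6.46 and 5.86 in the Ackr4ko-labelled arrays, against 6.32 and 6.24 in the WT-labelled arrays, with a mean difference of -0.12 ± 0.36 (SE). Both had a limma adjusted p of 1.00, with 95% intervals of -0.62 to 1.10 and -0.93 to 0.69 that include a 1.5-fold difference either way.

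Read together, 0 of the 10 tested probes passed limma's test at an adjusted p under 0.05, and 2 had an unadjusted p under 0.05 (Spry1 and Dusp1). Over the whole array 5 of 20862 tested probes passed (0.024%, with 0.00959% higher and the rest lower), and 4.54% had an unadjusted p under 0.05. The 5 are probes of Sema3b, Mst1 (2 probes), Tenm4 and Sytl3, named here after their values were seen because they are the only ones called. An exact two-sided permutation test of 2 arrays against 2 cannot give a p below 0.333, so none was run. With the experiment as a block, Spry1 (adjusted p = 4.06e-08) and Dusp4 (adjusted p = 0.0371) passed in limma, in a fit with 1 residual degree of freedom that gave all probes the same variance and called 3.17% of them (1.97% as higher). For Spry1 that p rests on WT values not above background. Its probe entered the test through the Ackr4ko-labelled arrays alone, so its pass is no support. Dusp1 did not pass there (limma adjusted p = 0.117), although 3 of the 10 probes had an unadjusted p under 0.05, against 10.3% of all. The experiment is stated in the labels, and by these the replicate numbers pair the arrays. Arrays of 1 experiment deviated together from their genotype means (r = 0.42 over the tested probes). That r includes dim probes, and both arrays of experiment 2 had the higher detection limit of their genotype. It therefore cannot show the pairing by itself.

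Of the 10 probes, 1 (Spry1) was higher by 2-fold or more in each experiment, against 1.22% of all tested probes, and 0 were lower by as much (0.489%), which makes 1.71% of all in either direction. At 1.5-fold there were 2 (Spry1 and Dusp1), against 5.99%. Spry1 entered the test through the Ackr4ko-labelled arrays alone. Its place in the counts of this paragraph is therefore in part set by that filter and is no support. Taking values as they stand, the arrays labelled Ackr4ko both lay above those labelled WT in 3 probes, of Dusp1, Spred1 (A_55_P2079430) and Spry1, the last unsettled by its detection limit, against 18.6% of all tested probes, and in 0 both lay below (10.1%), with 28.7% of all not overlapping in either direction. Higher values in both experiments were found for 4 probes (Dusp1, Spry1 and 2 of Spred1), against 32.3% of all, and lower values in both for Dusp6 alone, against 21.4%. Opposite signs in the experiments were seen for 5 of the 10 probes, against 46.4% of all.

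**Figure D3:**
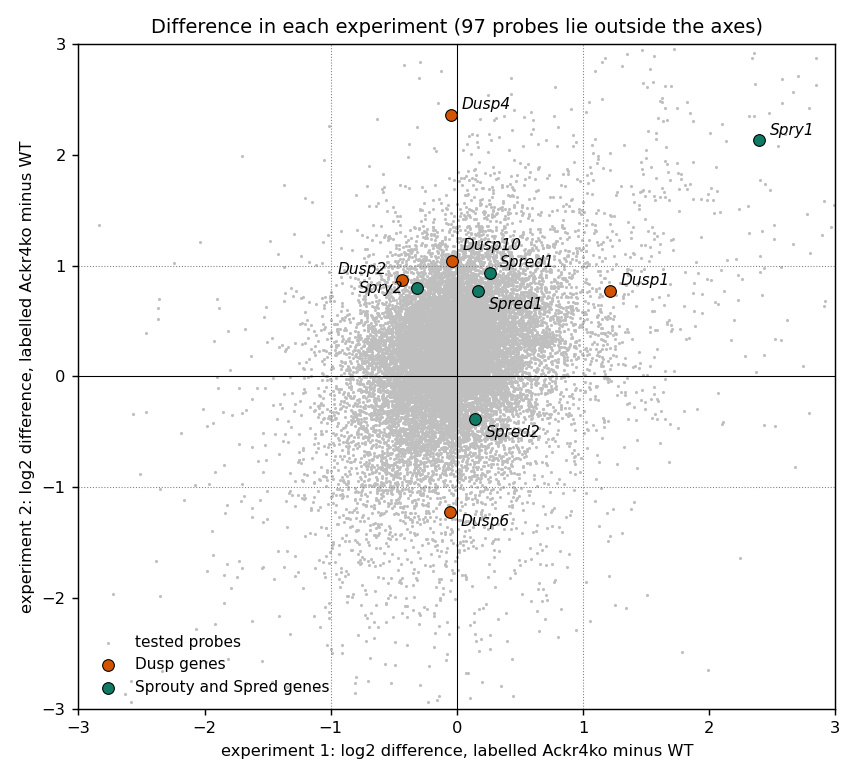
Log2 difference, labelled Ackr4ko minus labelled WT, in experiment 1 (horizontal axis) and experiment 2 (vertical axis) for all tested probes (grey) and the 10 tested feedback gene probes (coloured), with dotted lines at 2-fold. Spry1 lies at 2.40 and 2.13, taken against WT values not above background, Dusp4 and Dusp6 lie near 0 in experiment 1 and at 2.36 and -1.22 in experiment 2, and 97 probes lie outside the axes.

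Values in the experiments are given side by side. Positive differences were found for 5 probes in experiment 1, against 43.7% of all, and for 8 in experiment 2, against 67.2%. In experiment 1, 2 of the 10 probes differed by at least 2-fold in either direction (Spry1 and Dusp1), against 4.53% of all tested probes. In experiment 2 there were 4 (Dusp4, Spry1, Dusp6 and Dusp10), against 10.6%. Spry1 in both experiments and Dusp10 in experiment 2 were set against a WT value not well above background. Without them, Dusp1 alone remains in experiment 1, and Dusp4 and Dusp6 remain in experiment 2. The median difference over the 10 probes was 0.05 in experiment 1 and 0.84 in experiment 2, beside -0.05 and 0.23 over all tested probes. Between experiments, the array labelled Ackr4ko differed by 1.79 for Dusp4, -1.54 for Dusp6 and 1.55 for Spry1 (experiment 2 minus 1), and the array labelled WT by -0.62, -0.37 and 1.81 for the same genes. The 1.81 of Spry1 lies between WT values not well above background, on arrays with detection limits of 4.31 and 5.84. It is no measured change. With 1 array per genotype and experiment, a difference between the experiments could not be tested.

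The genes most alike to the members over the 4 arrays were found by the root mean square distance of log2 values centred per probe, among 9383 other genes well above background on the 4 arrays. Nearest to Dusp4 were Trib1, which encodes a pseudokinase, at a distance of 0.15, and the receptor gene Rxra and the adaptor gene Traf4 at 0.20 and 0.21, against a median of 0.85 over all candidates. Trib1 had a log2 signal of 8.80 and 10.46 in the Ackr4ko-labelled arrays, against 8.69 and 8.45 in the WT-labelled arrays, which repeats the lone high value of Dusp4 on Ackr4ko replicate 2. Other tested Trib1 probes differed between the genotypes by 0.07 and 0.61, and this one by 1.06. Nearest to Spred1 were Cebpg, Kpna3 and Zfp667, each at 0.02, against a median of 0.42. With 4 arrays such likeness is a description.

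Other genes of the pathway were then described from lists by role, with 1 probe per gene. Over all 15982 genes the median difference was 0.08, with -0.04 in experiment 1 and 0.23 in experiment 2, and 33% were higher and 20.9% lower in both experiments. In the fit with 1 probe per gene limma called 2 genes (0.0125%, with 0.00626% higher) and gave 4.58% an unadjusted p under 0.05, and no gene of the 5 lists was called in the fit over all probes.

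The phosphatases outside the 10 genes lay on either side of 0. Of 9 tested of 12 further dual-specificity phosphatases, 4 were higher and 3 lower in both experiments, with a median difference of 0.02. Among the 4 is Dusp19, which was well above background on the arrays labelled Ackr4ko alone and entered the test through them. Its difference is in part set by that filter. Dusp7, a cytoplasmic ERK phosphatase like DUSP6, had a log2 signal of 7.0 and 7.09 in the Ackr4ko-labelled arrays, against 8.82 and 8.78 in the WT-labelled arrays. Its replicates lay within 0.1 of each other while the genotypes differed by -1.76 ± 0.33 (SE), with a limma adjusted p of 0.237, but its other tested probe gave -0.46. It was the 1 gene of this list past 2-fold with 1 sign in each experiment, against 1.79% of all genes. Dusp14, a small atypical phosphatase, had 11.59 and 12.53 in the Ackr4ko-labelled arrays, against 10.71 and 10.68 in the WT-labelled arrays, a difference of 1.36 ± 0.40 (SE, limma adjusted p = 0.662). With the experiment as a block both passed in limma, with an adjusted p of 7.36e-05 for Dusp7 and 0.00618 for Dusp14. That fit gave all probes the same variance, so these p do not reflect the spread of each gene.

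For the kinases themselves and the other brakes on this signalling no difference passed the test. Of 17 tested genes from Grb2 and Ras to ERK, 7 were higher and 2 lower in both experiments, with a median difference of 0.08 and a range of -0.16 to 0.53. Map2k1, the kinase that activates ERK, had the highest value, 0.53, with 0.51 and 0.55 in the experiments, and Map3k8, a kinase upstream of it, had 0.47, with 0.01 and 0.92. Of 13 tested genes of the JNK and p38 cascades, 3 were higher and 3 lower in both experiments, with a median of 0.01, Map2k6 at 0.73 (1.21 in experiment 1 and 0.25 in experiment 2) and Map3k5 at 0.40, whose other probe gave -0.17. Of 14 tested genes of the list of other signalling brakes, 2 were higher and 3 lower in both experiments, with a median of -0.08. The adaptor Dok1 was at 0.60 (0.14 and 1.05) and the Ras GTPase activator Rasa1 at -0.50. Besides Ras inhibitors this list holds Errfi1, Cbl, Cblb and Pebp1. No gene of these 3 lists had an unadjusted limma p under 0.05, and none was called with the block.

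The 19 tested genes that ERK signalling induces had a median difference of 0.56, with -0.10 in experiment 1 and 1.17 in experiment 2, and 6 were higher and 1 lower in both experiments. Of the 19, 13 had their lowest value on WT replicate 2, the array that differed from the rest, against 28.5% of all genes, as did 5 of the 9 feedback genes. The part of that array in these differences was not tested. Of these genes, 5 had an unadjusted limma p under 0.05. Among them Fosl2, also counted as higher in both experiments, was well above background on the arrays labelled Ackr4ko alone. It entered the test through them, so its difference is in part set by that filter. Fos, Fosb, Egr3 and Zfp36 had log2 signals of 4.63, 4.92, 4.68 and 5.15 on WT replicate 2, under its detection limit of 5.84. Their differences in experiment 2 therefore rest on a dim WT value. Jun, an AP-1 subunit, had a log2 signal of 11.75 and 12.11 in the Ackr4ko-labelled arrays, against 10.17 and 9.91 in the WT-labelled arrays, a difference of 1.89 ± 0.35 (limma adjusted p = 0.218). Ier3, an immediate early gene, had 8.48 and 8.85 in the Ackr4ko-labelled arrays, against 6.70 and 7.07 in the WT-labelled arrays, a difference of 1.78 ± 0.35 (limma adjusted p = 0.242). Jun and Ier3 were the 2 genes of this list past 2-fold with 1 sign in each experiment, against 1.79% of all genes. With the block, in the fit that gave all probes the same variance, 5 genes of the list were called higher and 1 lower. Of all probes, 3.17% were called there in either direction. Among the 5 are Egr1 (-0.29 in experiment 1 and 2.83 in experiment 2) and Nr4a1 (-0.93 and 3.59), chosen here after their values were seen because their signs oppose.

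**Figure D4:**
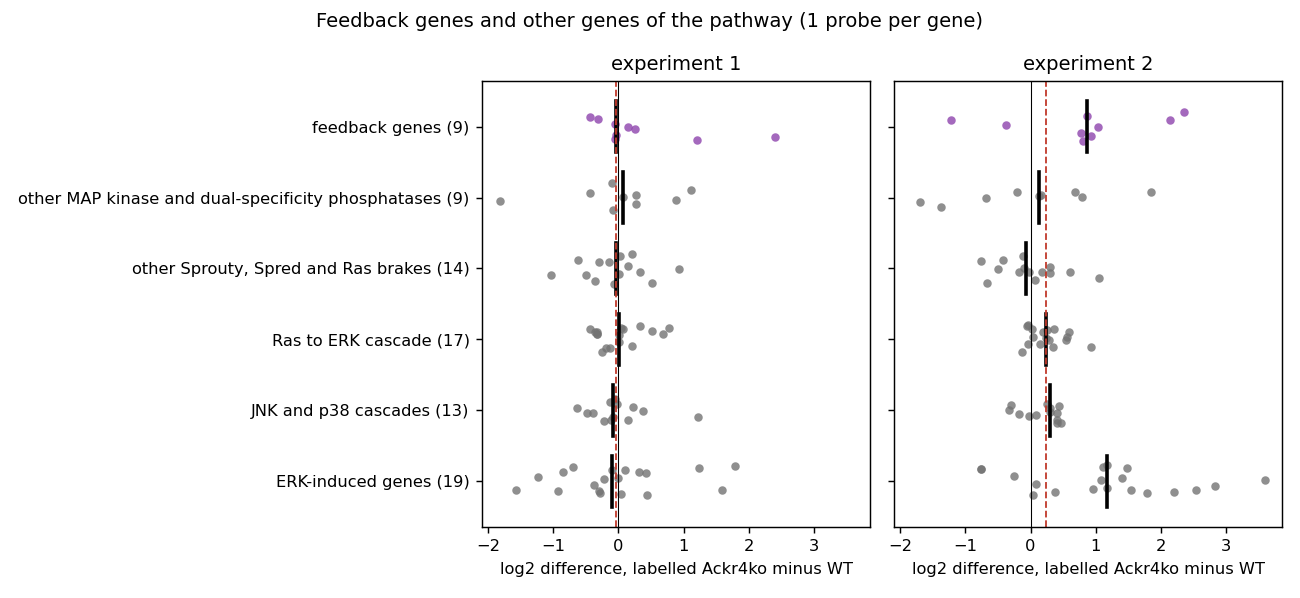
Log2 difference, labelled Ackr4ko minus labelled WT (horizontal axes), of each tested gene in experiment 1 (left) and experiment 2 (right), for the 9 tested feedback genes (purple) and 5 lists of pathway genes (grey, number of tested genes in brackets), with black bars at each median and a dashed line at the median of all genes. Medians of the ERK-induced genes lie at -0.10 in experiment 1 and 1.17 in experiment 2, while those of the kinase cascades lie near the dashed line in both.

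Beside these values, markers of further cell types of the spleen were measured as the number well above background and the summed scaled signal. Dendritic cell markers numbered 5 and 5 of 6 in the Ackr4ko-labelled arrays, against 3 and 3 in the WT-labelled arrays, with Itgax on none, and summed to 62753 and 75379 in the Ackr4ko-labelled arrays, against 64510 and 62922 in the WT-labelled arrays. Macrophage and monocyte markers numbered 5 of 7 on each array, with Lyz2 and Cd14 on none, and summed to 45095 and 36028 in the Ackr4ko-labelled arrays, against 53507 and 57371 in the WT-labelled arrays. T cell markers numbered 5 and 6 of 7 in the Ackr4ko-labelled arrays, against 5 and 5 in the WT-labelled arrays, with Cd8a on none, and summed to 3176 and 4718 in the Ackr4ko-labelled arrays, against 3396 and 4448 in the WT-labelled arrays. NK markers numbered 2 and 2 of 5 in the Ackr4ko-labelled arrays, against 2 and 1 in the WT-labelled arrays, with Ncr1, Klrb1c and Gzma on none, and summed to 742 and 1834 in the Ackr4ko-labelled arrays, against 771 and 925 in the WT-labelled arrays. Granulocyte markers (2 of 4) and stromal and endothelial markers (3 of 5) were above background on at least 2 arrays. The platelet markers Pf4 and Itga2b were above background on none. Granulocyte markers, with S100a8 and S100a9 on none, summed to 1117 and 1170 in the Ackr4ko-labelled arrays, against 1025 and 929 in the WT-labelled arrays. Stromal and endothelial markers, with Col1a1 and Pdgfra on none, summed to 643 and 291 in the Ackr4ko-labelled arrays, against 898 and 734 in the WT-labelled arrays. The part of other cells in the values of Spry1 and the Dusp genes was not tested, and in bulk samples fewer cells of a type and less RNA per cell cannot be told apart.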

How the data were processed

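RNA input was 50 ng per Cy3-labelled 1-colour Agilent array, per the labels' protocols. The deposited scanner files hold spot intensity from Feature Extraction 10.7.3.1 (named in the submitters' processing notes), with spatial and multiplicative detrending and probe positions on mm9, per the file headers. The authors' value table holds whole-number intensity per probe. Its columns share 1 set of values, with a median of 67 each, and how they were normalized is not given in the sources used here. It was used only as an alternative. The 4 arrays lay on 1 slide, so slide was no batch.

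Processed signals were divided by their array's 75th percentile and put on a log2 scale, plus a constant common to the arrays. Control and outlier-marked spots were left out, no spot was saturated, and the 4 spots per probe were averaged. Probes with at least 50% of spots well above background on at least 2 arrays were tested with limma 3.58.1 in R 4.3.3 (lmFit, eBayes, two-sided, Benjamini-Hochberg over 20862 probes, n = 2 per genotype). The detection limit of an array is its lowest probe value well above background, and it replaces a dimmer value where a fold is given with arrays set at that limit. Some probes above it are not well above background, so such a fold is no strict bound. The number of arrays limits the precision. All 12 member probes matched the same symbol by accession.

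The rule for named genes took all members. From each list it took called genes or, with none, the 2 with the smallest p, and genes past 2-fold with 1 sign in each experiment. It also took the 3 genes nearest to the Dusp and to the Spry or Spred member with the largest difference among probes measured on all 4 arrays. Lists were described by counts and medians: other dual-specificity phosphatases, Ras brakes, Ras to ERK, JNK and p38, ERK-induced genes and markers of 8 cell types. Of the B cell list and of the erythroid and platelet list, 1 marker each and the summed level are not reported here. Members, lists and rule were chosen with earlier results of these data known, so they are no independent support. Alternatives covered normalization, background correction, the dim-probe filter, outlier spots, 1 probe per gene, the experiment as a block, each array left out and the value table.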

Additional observations from a re-analysis of the deposited data

How the results depend on the processing

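The filters, 1 probe per gene and the replicate block leave a gene's difference as it is by construction, so only quantile or median normalization, normexp and outlier spots could move it, and none of these turned a sign. Of these settings only the block made Spry1 and Dusp4 pass the test. The value table, which lists the genotypes the other way round, reversed the sign of all 9: Dusp1 -0.84, Dusp2 -0.018, Dusp4 -1.0, Dusp6 0.72, Dusp10 -0.24, Spry1 -1.85, Spry2 -0.16, Spred1 -0.54 and Spred2 0.26. With 1 array left out in turn, the sign turned for Dusp2 (-0.39 to 0.83), Dusp6 (-1.41 to 0.13), Spry2 (-0.11 to 0.59) and Spred2 (-0.42 to 0.18), and it held for Dusp1 (0.59 to 1.40), Dusp4 (0.26 to 2.05), Dusp10 (0.16 to 0.84), Spred1 (0.21 to 0.98) and Spry1 (1.36 to 3.17). Member probes called by limma numbered 2 with the replicate block and 0 to 1 with an array left out (Spry1 without WT replicate 2). Those 2-fold the same way in both experiments numbered 0 with normexp, 0 with outlier spots kept, 0 among probes above background on all 4 arrays, where Spry1 was not tested, and 2 at 1.5-fold. Over the array, limma called 5 probes, against 1 with quantile normalization, 29 with normexp, 0 with no filter (356 at an unadjusted p under 0.05), 2 with 1 probe per gene, 661 with the replicate block, 1 in the value table and 0 to 182 with an array left out. Where an arm held 1 array, it was taken to vary like the other genotype. The causes of these shifts were not tested. Dim signal limits Dusp5, Dusp10, Spry1, Spry2 and Spred2.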
